A study of Mus musculus with 6 samples.

Results

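The transcripts of 6 transcription factors of the integrated stress response, Atf3, Atf4, Atf5, Ddit3, Cebpb and Cebpg, were followed in RNA-seq of wild-type mouse embryonic fibroblasts (WT MEFs). They are 6 of the 55291 genes listed, they were picked by gene name with their measured values in these same libraries already known, and all 6 passed the filter on low counts. Being chosen by these values, their differences between groups are given as a description. Counts of factors past a threshold are printed beside the share of all genes past it, and nothing is read from them. Poly(A) RNA was sequenced from MEFs treated with vehicle, with the mitofusin activator MASM7 at 1 μM for 6 h or with the mitofusin inhibitor MFI8 at 20 μM for 6 h, with 2 biological replicates in each of the 3 groups. All 6 libraries came from cells carrying both mitofusin genes; how long vehicle was applied is not stated in the labels. Mitofusins are the GTPases of the outer mitochondrial membrane that tether and fuse mitochondria, and the comparison asks how cells respond when fusion is promoted or blocked.

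In the integrated stress response, kinases that sense misfolded proteins, missing amino acids, viral RNA or damaged mitochondria phosphorylate the alpha subunit of the initiation factor eIF2. General translation falls, while the mRNAs of Atf4, Atf5 and Ddit3, which carry upstream open reading frames, are translated better. ATF4 then activates genes for amino acid uptake and synthesis together with further factors, among them CHOP (encoded by Ddit3) and ATF3. All of these proteins are basic leucine zipper factors that bind DNA as pairs, and C/EBPβ and C/EBPγ are partners of ATF4 and CHOP. Since much of the control of ATF4 lies in translation, its mRNA is only a part of its regulation, and proteins were not measured here.

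The libraries held 22791792 to 30677751 counts on genes. Mitochondrially encoded genes took 1.37% and 1.43% of them in the MFI8 libraries, and 1.61% and 1.51% in the MASM7 libraries, all below the 1.66% and 1.82% of the vehicle libraries, and the part of this in the differences given here was not tested. Of 10 fibroblast markers, 8 were above 1 TPM (transcript abundance normalized for length and depth) in every library, while Thy1 and Lum were below it. All 5 epithelial and all 5 endothelial markers stayed below 1 TPM in every library, as did 4 of 5 blood markers, the exception being Csf1r. The summed TPM of the fibroblast markers was between 4065 and 5144, against 0.169 to 0.486 for epithelial, 0.212 to 0.433 for endothelial and 4.18 to 6.01 for blood markers. The fibroblast sums of both MFI8 libraries lay between those of the vehicle libraries, and in every group the sum was lower in replicate 2. Vim and Col1a1 made up most of the sum, and single markers went both ways. Col3a1 was at 32.0 and 18.2 TPM with vehicle and 20.9 and 14.6 TPM with MFI8. Fn1 was at 396.5 and 342.2 TPM with vehicle and 435.8 and 366.8 TPM with MFI8. In these bulk RNA samples, more RNA per cell and more cells carrying it cannot be told apart.

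The start of the largest difference, that of Atf3, is shown first, beside the starts of Atf4 and Ddit3. Promoter sequences came from RefSeq (GRCm38.p6), whose windows matched all 6 factors, with 2 windows for Atf5. Bases are written 5′ to 3′ on the gene's strand, and only bases outside annotated exons are printed. Capitals mark matches to TGATGNAA, the CARE element bound by ATF4 with a C/EBP partner, to TGACGTNA, the ATF/CRE element, or to the CCAAT box, each searched on both strands in the 250 bases upstream of the start.
Atf3, chr1:191183341-191183583, minus strand: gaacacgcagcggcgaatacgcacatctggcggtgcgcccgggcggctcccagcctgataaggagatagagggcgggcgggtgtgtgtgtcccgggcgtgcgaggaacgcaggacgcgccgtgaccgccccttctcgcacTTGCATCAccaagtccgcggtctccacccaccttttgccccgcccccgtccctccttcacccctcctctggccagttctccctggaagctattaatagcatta
Atf4, chr15:80254934-80255183, plus strand: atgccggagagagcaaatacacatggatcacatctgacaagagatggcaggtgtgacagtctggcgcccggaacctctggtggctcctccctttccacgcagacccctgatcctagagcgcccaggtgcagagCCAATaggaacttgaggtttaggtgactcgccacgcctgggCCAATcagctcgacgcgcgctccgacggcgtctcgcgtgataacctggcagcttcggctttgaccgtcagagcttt
Ddit3, chr10:127290725-127290773, plus strand: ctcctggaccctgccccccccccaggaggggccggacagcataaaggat

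The Atf3 stretch held a CARE match, TTGCATCA, 110 to 103 bases upstream of the start. A further match in the Atf3 window, TTACGTCA for the ATF/CRE element, lay 10 to 3 bases upstream and runs past the printed stretch into an annotated exon. GENCODE vM21 places Atf3 at chr1:191170296-191218039 on the minus strand, so this RefSeq start lies inside the annotated gene. No other of the 7 windows of the 6 factors held either element within 250 bases, whereas 3.45% of the 32851 mouse windows held the CARE letters and 2.52% the ATF/CRE letters. The CCAAT box was found in 4 of the 7 windows and stood 2 times in those of Atf4 and Cebpg, against 33.85% of all windows. In Ddit3 the box lay 77 to 73 bases upstream, outside the printed stretch, because 181 of its 250 upstream bases are annotated as exonic. These are matches of letters, and binding was not measured.

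Atf3, a stress-induced repressor and activator, showed the largest difference of the 6 factors. In CPM (counts scaled to a common library size with TMM factors), its level was 2.24 and 3.06 in the vehicle libraries, 2.47 and 3.65 in the MASM7 libraries and 6.75 and 20.9 in the MFI8 libraries. Both MFI8 libraries lay above the other 4, and the MASM7 and vehicle libraries overlapped. The exact 95% Poisson intervals, which cover counting error only, were 5.73 to 7.90 and 19.3 to 22.6 CPM for the MFI8 libraries. With 155 and 645 reads behind them, the 2 MFI8 replicates differed by 1.62 on the log2 scale, a larger gap than for 99.63% of the genes tested. The mean was 13.8 ± 10.01 CPM with MFI8 and 2.65 ± 0.58 CPM with vehicle (SD, n = 2). The log2 fold change of MFI8 against vehicle was 2.40 with a standard error (SE) of 0.46, a 5.27-fold difference that ranked 6 of 14290 genes by size. Without the second MFI8 replicate it was 1.34. For MASM7 against vehicle the log2 fold change of Atf3 was 0.20 (SE 0.52), smaller than its error. It turned to -0.11 without the second MASM7 replicate and was 0.46 without the first. Without the first or the second vehicle replicate it was 0.00081 or 0.45.

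**Figure D1:**
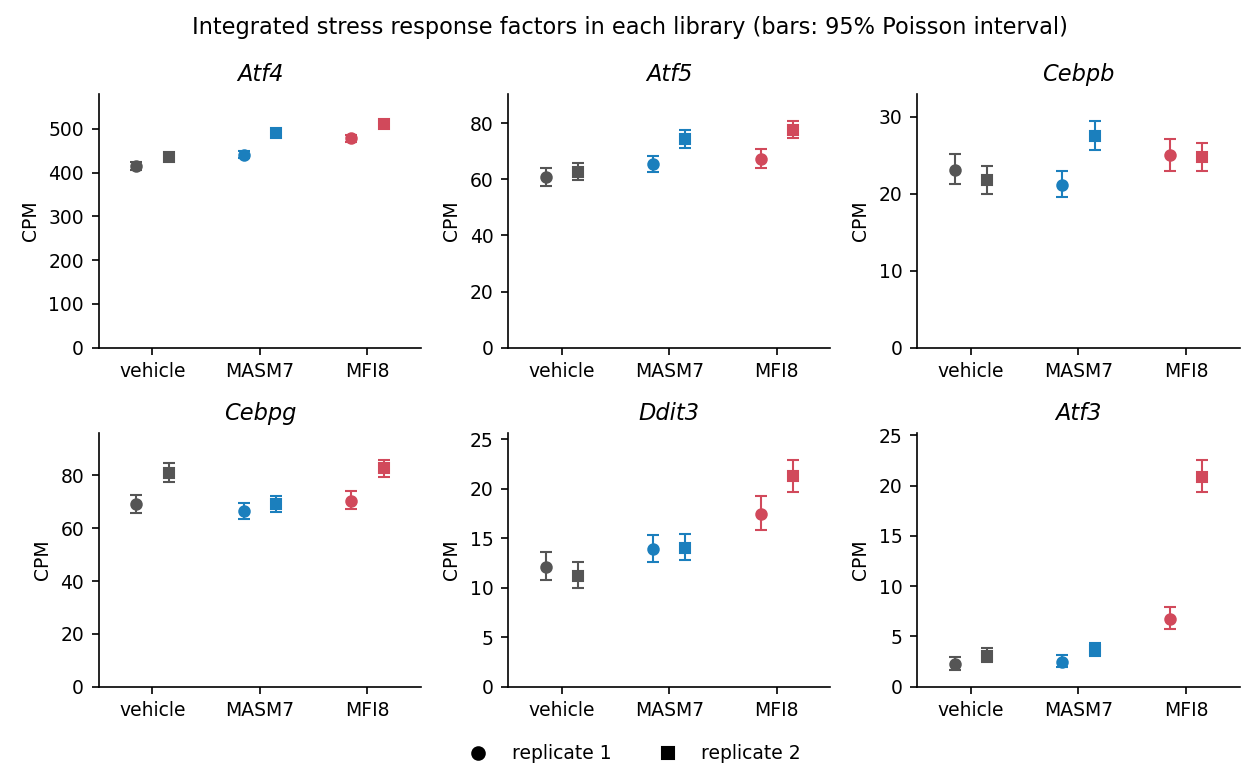
CPM of each factor (y axis, from 0) in the vehicle, MASM7 and MFI8 libraries, with circles for replicate 1, squares for replicate 2 and bars for the exact 95% Poisson interval. For Atf3 the MFI8 libraries at 6.75 and 20.9 CPM stand above the other 4, which lie between 2.24 and 3.65 CPM.

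Ddit3, which encodes CHOP, a factor linked to cell death under prolonged stress, came second. It measured 12.1 and 11.2 CPM with vehicle, 13.9 and 14.1 CPM with MASM7, and 17.5 and 21.3 CPM with MFI8. The 3 groups did not overlap, with MASM7 between vehicle and MFI8. The log2 fold change was 0.74 (SE 0.12) for MFI8 and 0.26 (SE 0.12) for MASM7 against vehicle, or 1.67-fold and 1.20-fold. Leaving out the first or the second MFI8 replicate gave 0.87 or 0.58 for MFI8. GENCODE vM21 gives the symbol Ddit3 to 2 overlapping loci at chr10:127290774-127296288 and chr10:127290829-127293753, and the table has 1 row for them. Its exons share 68 bases with Mars and 13 with Gm4189 on the opposite strand.

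Atf4, the factor at the centre of the response, was at 415 and 436 CPM with vehicle, 441 and 491 CPM with MASM7, and 478 and 510.5 CPM with MFI8. Both treated groups lay above vehicle and overlapped with each other. The gap between MASM7 and vehicle was within counting error. The 95% Poisson intervals were 433 to 448 CPM for the first MASM7 replicate and 427 to 444 CPM for the second vehicle replicate. The log2 fold change was 0.22 (SE 0.064) for MFI8, a 1.16-fold difference, and 0.13 (SE 0.064) for MASM7. Without the first or the second MASM7 replicate the latter was 0.21 or 0.052. The gene lies at chr15:80255184-80257541.

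Atf5, a factor linked to the mitochondrial unfolded protein response, measured 60.8 and 62.7 CPM with vehicle, 65.4 and 74.3 CPM with MASM7, and 67.3 and 77.7 CPM with MFI8. Both treated groups were above vehicle without overlap, and the treated groups overlapped with each other. The 95% Poisson interval of the second vehicle replicate, 59.7 to 65.9 CPM, overlapped those of the first MASM7 replicate, 62.5 to 68.4 CPM, and the first MFI8 replicate, 64.0 to 70.7 CPM. The log2 fold change was 0.23 (SE 0.084) for MFI8 and 0.18 (SE 0.084) for MASM7, slightly above the values of Atf4. It was 0.12 for MFI8 without the second MFI8 replicate, and 0.27 or 0.082 for MASM7 without the first or the second MASM7 replicate. The direction of MFI8 against MASM7, 0.056 (SE 0.083), changed without the second MFI8 replicate, to -0.054, and without the first MASM7 replicate, to -0.033. Atf5 is annotated at chr7:44812256-44816658 and shares 82 exonic bases with Nup62 and Il4i1 on the opposite strand.

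The C/EBP partners had the smallest values with MFI8. Cebpb, which encodes C/EBPβ, was at 23.15 and 21.7 CPM with vehicle, 21.2 and 27.6 CPM with MASM7, and 25 and 24.8 CPM with MFI8. The MFI8 libraries lay above vehicle, while the 2 MASM7 libraries spanned both other groups. Its log2 fold change was 0.15 (SE 0.12) for MFI8 and 0.12 (SE 0.12) for MASM7, and the latter was 0.30 without the first MASM7 replicate, 0.077 without the second vehicle replicate and -0.081 without the second MASM7 replicate. Of its 1504 exonic bases at chr2:167688915-167690418, 312 overlap Tmem189 on the opposite strand. The TruSeq kit named in the labels does not mark strand, so reads from such overlaps cannot be told apart.

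Cebpg encodes C/EBPγ, a short member of the family that pairs with ATF4. It was at 69.05 and 81.05 CPM with vehicle, 66.4 and 69.2 CPM with MASM7, and 70.5 and 82.7 CPM with MFI8. Vehicle and MFI8 covered almost the same range, and the MASM7 libraries lay below both MFI8 libraries. The log2 fold change was 0.031 (SE 0.092) for MFI8 and -0.15 (SE 0.092) for MASM7 against vehicle. The MASM7 value was -0.26 without the first and -0.026 without the second vehicle replicate. The MFI8 value turned to -0.077 without the first vehicle replicate and to -0.091 without the second MFI8 replicate. It rose to 0.15 without the second vehicle replicate and to 0.14 without the first MFI8 replicate. The gene lies at chr7:35046422-35056573.

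**Figure D2:**
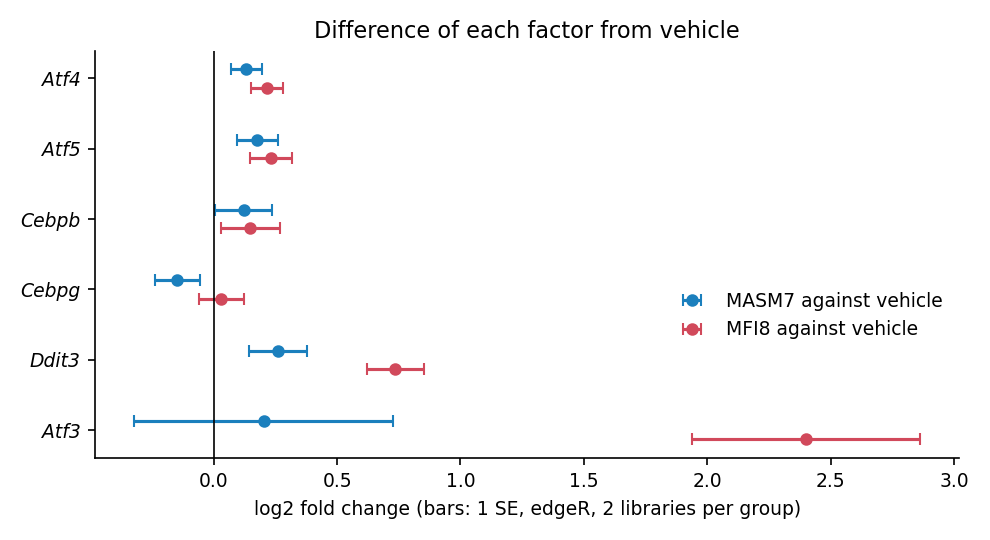
Log2 fold change of each factor against vehicle (x axis) for MASM7 in blue and MFI8 in red, with bars of 1 SE from the edgeR fit of 2 libraries per group. MFI8 values run from 0.031 for Cebpg to 2.40 for Atf3, and MASM7 values from -0.15 for Cebpg to 0.26 for Ddit3.

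Counted together for MFI8 against vehicle, all 6 factors had a positive log2 fold change with a median of 0.23, while the median over all 14290 genes tested was 0.0027. Both MFI8 libraries were above both vehicle libraries for 5 of the 6 factors, the exception being Cebpg, and for 20.9% of all genes. At an unadjusted p under 0.05 in edgeR's quasi-likelihood test stood 4 of the 6, and 9.86% of all genes. After Benjamini-Hochberg adjustment 0 of the 6 factors and 0% of all genes passed 0.05 in this fit, which had no replicate block. In all, 1409 genes were below an unadjusted p of 0.05, and the DESeq2 Wald test, run on the 26760 genes with a count in any library, called 49 genes, among them Ddit3 as the single factor of the 6.

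For MASM7 against vehicle, 5 of the 6 factors had a positive log2 fold change, with a median of 0.15 against 0.00067 over all genes. The MASM7 libraries did not overlap with vehicle and were higher for 3 factors, Atf4, Atf5 and Ddit3, and for 21.2% of all genes. For each of these 3 factors, the 95% Poisson intervals of the closest MASM7 and vehicle libraries overlapped. None of the 6 reached an unadjusted p under 0.05, which 10.2% of all genes did. After adjustment 0 factors and 0% of genes passed in edgeR, with 1458 genes below an unadjusted p of 0.05, and DESeq2 called 2 genes, none of them a factor of the 6.

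The levels under MFI8 and MASM7 are set side by side, because the compounds were given at 20 μM and 1 μM and the compound and its concentration cannot be told apart. Atf3 averaged 13.8 CPM with MFI8 and 3.06 CPM with MASM7, and Ddit3 averaged 19.4 and 14.0 CPM. The other 4 averages were 494 and 466 CPM for Atf4, 72.5 and 69.8 CPM for Atf5, 24.9 and 24.4 CPM for Cebpb, and 76.6 and 67.8 CPM for Cebpg. The MFI8 libraries were above the MASM7 libraries without overlap for Atf3, Ddit3 and Cebpg, 3 of the 6, and for 19.6% of all genes. An unadjusted p under 0.05 was found for 2 of the 6, Atf3 and Ddit3, and for 7.18% of all genes. After adjustment 0 of the 6 and 0% of all genes passed in edgeR, where 1026 genes were below an unadjusted p of 0.05, and DESeq2 called 29 genes.

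Levels of different genes were compared in TPM, which accounts for transcript length. The order was the same in all 6 libraries, from Atf4 at 618 to 780 TPM, through Atf5 at 107 to 140, Cebpb at 49.4 to 63.9, Cebpg at 41.4 to 53.0 and Ddit3 at 23.3 to 44.7, to Atf3 at 3.65 to 34.9. Atf4 alone made up 70.1% to 73.3% of the summed TPM of the 6 factors. Cebpb and Cebpg were neighbours whose means in vehicle, 52.7 ± 1.9 and 47.2 ± 5.8 TPM (SD, n = 2), had overlapping SD ranges. Cebpg and Ddit3 were apart in vehicle, at 47.2 ± 5.8 and 24.1 ± 1.1 TPM, and had overlapping SD ranges with MFI8, at 49.1 ± 5.5 and 40.7 ± 5.7 TPM. Ddit3 and Atf3 did so too with MFI8, where the second replicate held 44.7 and 34.9 TPM of them. The SD ranges of all other neighbours were apart in every group.

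**Figure D3:**
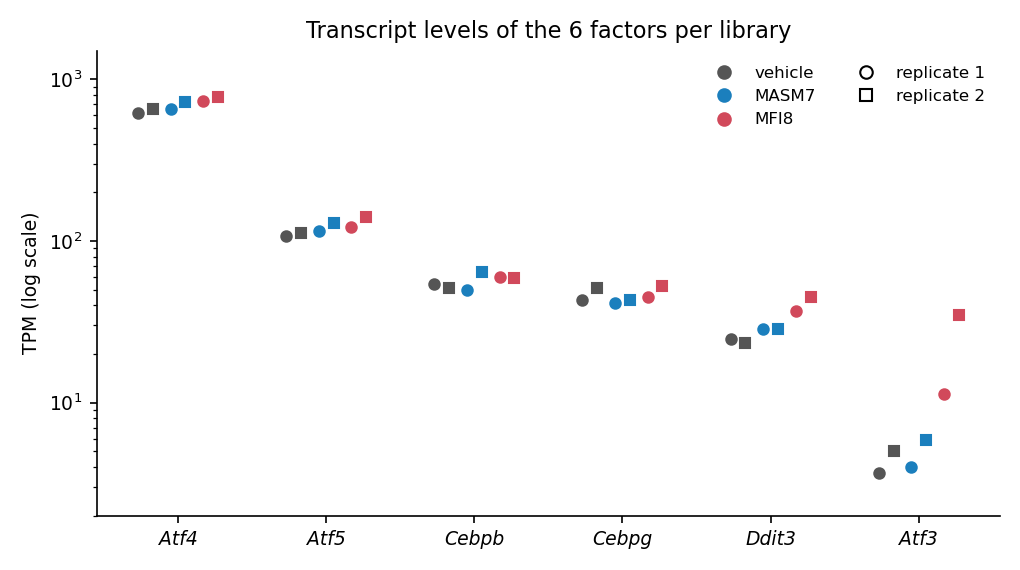
TPM of the 6 factors (log y axis) in each library, coloured by group, with circles for replicate 1 and squares for replicate 2. Atf4 is highest in every library, at 618 to 780 TPM, and Atf3 lowest, at 3.65 to 34.9 TPM.

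Atf4 had 24.8 and 28.2 times the TPM of Ddit3 with vehicle, 23.0 and 25.4 times with MASM7, and 19.9 and 17.4 times with MFI8. Its ratio to Atf3 was 169 and 130 in the vehicle libraries, 163 and 123 in the MASM7 libraries, and 64.7 and 22.3 in the MFI8 libraries. In both ratios the 2 MFI8 libraries were the lowest of the 6. The summed TPM of the 6 factors was 851 and 900 in the vehicle libraries, 893 and 998 in the MASM7 libraries, and 1004 and 1112 in the MFI8 libraries.

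Across the 6 libraries the factors varied together to different degrees, which is given as a description because the libraries share their groups. Pearson's r of log2 CPM was 0.959 between Atf4 and Atf5 and 0.917 between Atf3 and Ddit3, and -0.036 between Cebpb and Cebpg. Among 11989 genes with a mean of at least 1 CPM, those most like Atf3 were Csrnp1 (r = 0.996) and Adcy9 (r = 0.996). Csrnp1 measured 0.51 and Adcy9 0.38 as log2 fold changes of MFI8 against vehicle, well under the 2.40 of Atf3. The nearest to Atf4 were Lzts3 (r = 0.998) and Amotl2 (r = 0.996), and the nearest to Atf5 were Zhx2 (r = 0.993) and BC034090 (r = 0.988). Ddit3 was closest to Pip4k2c and Slc48a1 (both r = 0.995), and Pip4k2c lies 79.2 kb from Ddit3 on chromosome 10. For Cebpb they were Grasp (r = 0.995) and Map2k3os (r = 0.989), and for Cebpg Rnf115 (r = 0.991) and Mtmr6 (r = 0.990). These genes were picked as the highest of 11989 values of r over only 6 libraries, where values near 1 can come from the search alone. Shared control of these genes was not tested.

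The genes around the factors were read from 5 lists with 98 genes in all, of which 92 passed the filter. In the edgeR fit 0 of them had an adjusted p under 0.05 with either compound, where the DESeq2 Wald test called Ppp1r15a and Slc7a11 for MFI8. At an unadjusted p under 0.05, 25 of the 92 were higher and 1 lower with MFI8, and 14 were higher and 5 lower with MASM7. Over all 14290 genes, 744 were higher and 665 lower with MFI8, and 760 higher and 698 lower with MASM7.

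Among the regulators upstream of ATF4, most values were near 0 with MFI8. Of 19 genes for the eIF2α kinases, their regulators, eIF2 and eIF2B subunits, and phosphatases, 10 had a positive and 9 a negative log2 fold change, with a median of 0.0036, and 3 were below an unadjusted p of 0.05, against 9.86% of all genes. The 4 kinase genes themselves, named after their values were seen, measured -0.077 for Eif2ak1 (HRI), -0.036 for Eif2ak2 (PKR), 0.037 for Eif2ak3 (PERK) and 0.069 for Eif2ak4 (GCN2). The exception was Ppp1r15a, which encodes GADD34, the subunit that directs a phosphatase back to eIF2α and is itself a target of the response. It was at 25.9 and 26.55 CPM with vehicle, 26.7 and 29.95 CPM with MASM7 and 33.1 and 44.9 CPM with MFI8, with a log2 fold change of 0.58 (SE 0.13) for MFI8 at an edgeR adjusted p of 0.265. The GCN2 activator Gcn1 measured 0.17 (SE 0.055) and the GCN2 inhibitor Impact 0.22 (SE 0.073) on the same scale, with edgeR adjusted p of 0.398 and 0.412. Leaving out single libraries moved the median of the list between 0.0042 and 0.037 with MFI8 and between -0.0084 and 0.034 with MASM7. With MASM7 the list had a median of 0.013, Gcn1 measured 0.21 (SE 0.055), and Eif2b4, a subunit of the exchange factor eIF2B, 0.16 (SE 0.065). Eif2s1, the phosphorylated subunit itself, measured -0.10 (SE 0.050) with MFI8.

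The targets of ATF4 lay mostly above 0. Of 37 targets tested, 34 had a positive log2 fold change with MFI8, 24 had both MFI8 libraries above both vehicle libraries, as had 20.9% of all genes, and 19 were higher and 0 lower at an unadjusted p under 0.05. Their median was 0.19 against 0.0027 over all genes, and it was 0.10 without the second MFI8 replicate. Unadjusted p values under 0.05 stood at 9.86% of all genes with MFI8 and 10.2% with MASM7. With MASM7 36 of the 37 were positive, 16 did not overlap with vehicle and were higher, as were 21.2% of all genes, 7 were higher and 0 lower at an unadjusted p under 0.05, and the median was 0.12 against 0.00067, or 0.20 and 0.056 without the first and the second MASM7 replicate, and 0.19 without the second vehicle replicate. Slc7a11, the cystine transporter that feeds glutathione synthesis, was at 11.7 and 12.8 CPM with vehicle, 13.6 and 12.4 CPM with MASM7, and 19.8 and 24.3 CPM with MFI8. Its log2 fold change was 0.86 (SE 0.12) for MFI8, with the smallest edgeR adjusted p of the lists, 0.0924, and 0.088 (SE 0.12) for MASM7. Chac1, which degrades glutathione, measured 13.15 and 14.55 CPM with vehicle, 14.98 and 23.5 CPM with MASM7, and 21.4 and 40.2 CPM with MFI8, a log2 fold change of 1.16 (SE 0.28) for MFI8. The glycine transporter Slc6a9 measured 0.46 (SE 0.11) and the arginine and lysine transporter Slc7a1 0.22 (SE 0.048) for MFI8. For MASM7 the smallest p values of the list were those of Shmt2, of mitochondrial one-carbon metabolism, at 0.20 (SE 0.057), and Phgdh, of serine synthesis, at 0.21 (SE 0.065), both with an edgeR adjusted p of at least 0.466.

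**Figure D4:**
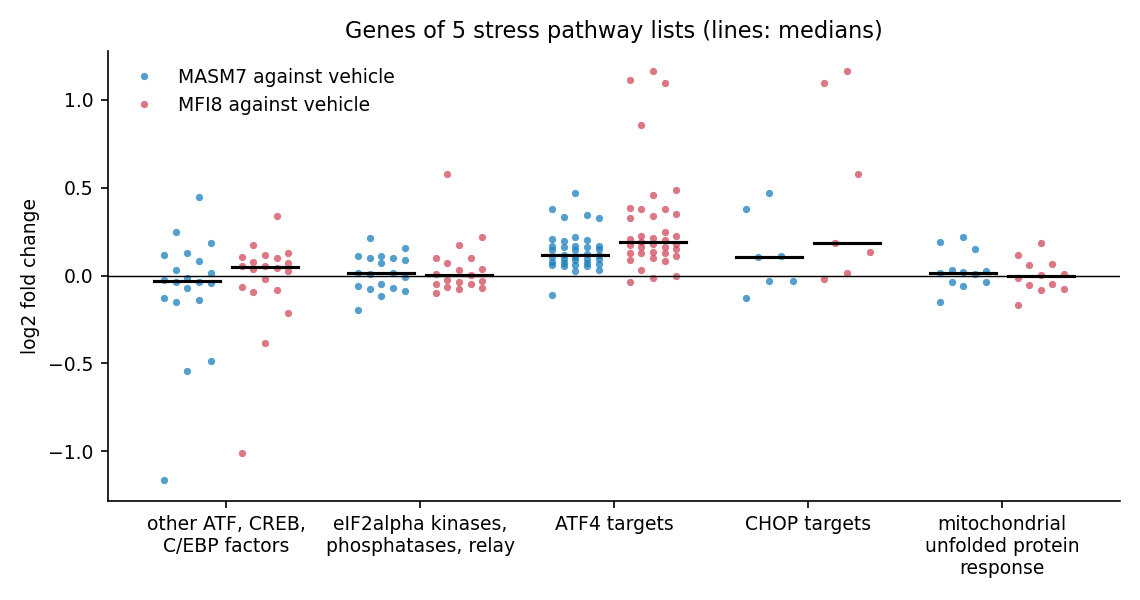
Log2 fold change against vehicle (y axis) of each tested gene of 5 lists, with MASM7 in blue, MFI8 in red and black lines at the medians. The medians of the ATF4 targets are 0.12 for MASM7 and 0.19 for MFI8, and those of the mitochondrial unfolded protein response are 0.017 and -0.0046.

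Of the 7 CHOP targets tested, 3 of which also stand in another list, 6 had a positive log2 fold change with MFI8 and 4 were higher at an unadjusted p under 0.05, against 9.86% of all genes in either direction, with a median of 0.19 that was 0.38 without the first vehicle replicate. These 4 were Chac1, Trib3, Ppp1r15a and Tnfrsf10b. Trib3, a pseudokinase that binds ATF4 and CHOP, was at 6.09 and 8.745 CPM with vehicle, 7.98 and 11.4 CPM with MASM7, and 10.6 and 20.8 CPM with MFI8. Its log2 fold change for MFI8 was 1.09 (SE 0.30), and that of the death receptor gene Tnfrsf10b was 0.19 (SE 0.062). The genes of the BH3-only proteins BIM and PUMA, named after their values were seen, measured 0.014 (SE 0.24) for Bcl2l11 and 0.13 (SE 0.18) for Bbc3, and Pmaip1 was too low to be tested. With MASM7 4 of the 7 were positive and 0 passed an unadjusted p of 0.05. The ER oxidase gene Ero1l had the smallest p of this list for MASM7, at -0.13 (SE 0.065).

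**Figure D5:**
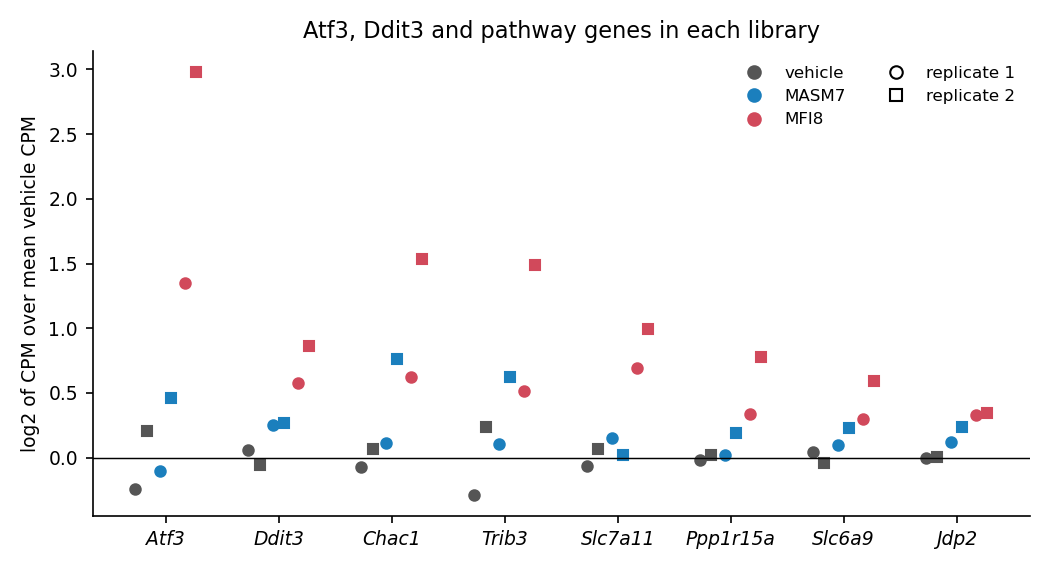
Log2 of the CPM of each library over the mean CPM of vehicle (y axis) for Atf3, Ddit3 and 6 genes of the lists, coloured by group, with circles for replicate 1 and squares for replicate 2. The 6 genes were picked among named genes that were higher with MFI8. Named genes with small or negative values, such as Slc7a1, Eif2s1 and Yme1l1, are not shown. For Atf3 the MFI8 replicates lie at 1.35 and 2.98, and for Chac1 at 0.63 and 1.54.

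Further factors of the same families were spread around 0. Of 20 further ATF, CREB and C/EBP genes tested, 13 were positive with MFI8, 1 was higher at an unadjusted p under 0.05, against 9.86% of all genes in either direction, and the median was 0.047, or 0.087 and 0.0015 without the first and the second MFI8 replicate, and 0.0066 and 0.076 without the first and the second vehicle replicate. With MASM7 8 were positive and 12 negative, with a median of -0.030 that lay between -0.070 and -0.012 with single libraries left out, and 2 were higher and 3 lower at an unadjusted p under 0.05, against 10.2% of all genes. The gene below an unadjusted p of 0.05 with MFI8 was Jdp2, a close relative of Atf3 that also represses ATF and AP-1 sites. It measured 27.2 and 27.4 CPM with vehicle, 29.75 and 32.25 CPM with MASM7, and 34.3 and 34.7 CPM with MFI8, with log2 fold changes of 0.34 (SE 0.075) for MFI8 and 0.18 (SE 0.075) for MASM7. The ER stress sensors measured 0.13 (SE 0.068) for Atf6 and 0.12 (SE 0.055) for Atf6b with MFI8, and Atf6b measured 0.25 (SE 0.055) with MASM7. Batf3, an AP-1-like factor, was under 1 CPM in every library, at -1.01 (SE 0.49) with MFI8 and -1.17 (SE 0.49) with MASM7.

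The 12 genes of the mitochondrial unfolded protein response had a median of -0.0046 with MFI8, 6 positive and 6 negative, and of 0.017 with MASM7. Leaving out single libraries moved these medians between -0.038 and 0.016 with MFI8 and between -0.012 and 0.037 with MASM7. The matrix protease Lonp1, at 147 and 144 CPM with vehicle, 160.1 and 162 CPM with MASM7 and 165.5 and 165 CPM with MFI8, measured 0.18 (SE 0.050) for MFI8 and 0.15 (SE 0.050) for MASM7. The inner membrane protease Yme1l1 measured -0.17 (SE 0.058) for MFI8 and -0.15 (SE 0.058) for MASM7. The related proteases Spg7 and Afg3l2 measured 0.11 (SE 0.069) and -0.081 (SE 0.056) for MFI8. Htra2, a protease of the intermembrane space, measured 0.19 (SE 0.051) for MASM7. The chaperone genes Hspd1 and Hspa9, named after their values were seen, measured -0.054 (SE 0.063) and -0.046 (SE 0.063) for MFI8.

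The replicate number moved with the ATF4 targets and, less evenly, with the factors. Replicate 2 was above replicate 1 for 4 of the 6 factors with vehicle, 6 with MASM7 and 5 with MFI8. The exceptions were Ddit3 and Cebpb with vehicle, and Cebpb with MFI8. Among the 37 ATF4 targets the same held for 31 with vehicle, 32 with MASM7 and 35 with MFI8, while over all genes tested it held for 50.0%, 51.5% and 50.5%. The median difference of replicate 2 from replicate 1 in these targets was 0.13 with vehicle, 0.13 with MASM7 and 0.23 with MFI8 on the log2 scale, beside their median of 0.19 for MFI8 against vehicle. The labels name no batch, day or culture behind the numbers, and the part of the replicate number in the differences from vehicle was not tested beyond the fit with it as a block.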

How the data were processed

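RNA-seq of WT MEFs was deposited as 6 libraries, 2 for each of vehicle, MASM7 and MFI8. Per the labels, reads were trimmed with Trimmomatic, aligned with STAR to GRCm38 and counted with featureCounts, and the authors deposited raw counts per gene, TPM values and counts divided by DESeq2 size factors, which were not used. The annotation release and strand setting are not given in the sources used here. Raw counts of all libraries were fitted in edgeR 4.0.16 (R 4.3.3) with filterByExpr, TMM factors and 1 coefficient per group, tested by quasi-likelihood F test with Benjamini-Hochberg adjustment at 0.05. Log2 CPM used a prior count of 2. Each SE was derived from the F statistic and the log2 fold change. An exact permutation test of 2 libraries against 2 cannot go below 0.333. TPM served for levels between genes. Scripts were tested on simulated data.

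Members and lists were chosen with earlier results of these data known, lists from textbook roles. Named were all 6 factors, the 4 genes of each list with the smallest p for MFI8 and the 2 for MASM7, and the 2 genes most correlated with each factor. Gene positions came from GENCODE vM21. Alternatives were other size factors, filters, the 2 groups alone, the replicate block, DESeq2 1.42.0, limma 3.58.1 on log2(TPM + 1) or log2(TPM + 0.1), and each library left out.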

Additional observations from a re-analysis of the deposited data

How the results depend on the processing

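The edgeR fit called 0 genes in each comparison, and several alternatives called more. For MFI8 against vehicle, MASM7 against vehicle and MFI8 against MASM7, the numbers of genes called were 256, 127 and 168 without the filter on low counts, and 49, 2 and 29 with the DESeq2 Wald test, which ran on the 26760 genes with a count in any library in place of 14290, so that tool and filter changed together. By default DESeq2 also filters on low means before adjustment, so its adjusted p can cover fewer genes. Fitting only the 2 groups compared called 1 gene for MASM7 against vehicle and 2 for MFI8 against MASM7, and limma on every gene above 0 called 13 for MASM7 against vehicle. Among the 6 factors, dropping the filter called 3 for MFI8 against vehicle (Atf3, Atf4 and Ddit3) and 2 for MFI8 against MASM7 (Atf3 and Ddit3), and DESeq2 called 1, Ddit3. With the filter dropped, the log2 fold change of Atf3 for MFI8 against vehicle was 2.41, beside 2.40 in the main fit. Its edgeR adjusted p went from 0.186 to 1.3e-40 with 2 libraries per group. These calls thus came with almost the same difference and are not read as support. Of the 92 pathway genes, dropping the filter called 13 for MFI8 and 6 for MASM7, and DESeq2 called 2 for MFI8. Leaving out each library in turn gave 0 to 26, 0 to 2 and 0 to 24 genes in the 3 comparisons, 0 to 2 factors for MFI8 against vehicle, 0 to 1 for MFI8 against MASM7 and 0 to 4 pathway genes for MFI8. The highest counts of both comparisons with MFI8 came without the first MFI8 replicate, where the lone MFI8 library is assumed to vary like the other groups, and Atf3 and Ddit3 were then called against vehicle. For MASM7 against vehicle the highest count came without the second MASM7 replicate. The cause of these changes was not tested. Beside these and the replicate block, the other planned settings made no call among the factors.

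The replicate number as a block in edgeR called 720, 554 and 439 genes. Under this block, 4 factors were called for MFI8 against vehicle (Atf3, Atf4, Atf5 and Ddit3) and 2 for MFI8 against MASM7 (Atf3 and Ddit3), with 26 pathway genes for MFI8 and 15 for MASM7. No source says that equal numbers pair the libraries. The differences of replicate 2 from replicate 1 correlated across 14290 genes at r = 0.152 (MFI8 with vehicle), 0.188 (MASM7 with vehicle) and 0.165 (MFI8 with MASM7), and at r = 0.621, 0.508 and 0.538 over the 7145 genes of higher mean. Only 2 numbers exist, so whether they pair the libraries remains unknown.

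The log2 fold change of MFI8 against vehicle ranged from 1.34 to 2.97 for Atf3 and from 0.58 to 0.87 for Ddit3 over 16 settings. For these genes both MFI8 libraries lay above both vehicle libraries. Leaving out a library could therefore not turn the sign, and nothing is read from its staying the same. The sign changed in 2 of 16 settings for Cebpg with MFI8, and in 1 of 16 for Atf3 and for Cebpb with MASM7. For Atf3, the 51 and 77 reads with vehicle give a counting error of 12.5%. The biological coefficient of variation that edgeR fitted over all groups together was 0.284, beside a trend of 0.099 at its level. It is not the spread of vehicle alone. The 2 replicates of Atf3 differed by 0.44 with vehicle and by 1.62 with MFI8 on the log2 scale.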
